A study of Arabidopsis thaliana with 4 samples.

Results

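The aquaporins of Arabidopsis thaliana were examined as a family of 35 genes, chosen by locus identifier from the 27416 gene models listed for dark-grown and red-light-grown seedlings. They comprised 10 tonoplast intrinsic proteins (TIPs), 13 plasma membrane intrinsic proteins (PIPs), 9 nodulin 26-like intrinsic proteins (NIPs) and 3 small basic intrinsic proteins (SIPs). The names are spelled with a hyphen, as in TIP1-1 (AT2G36830), where plant papers use a semicolon. Aquaporins are membrane channels that let water, and in some members small neutral solutes, cross a membrane passively. TIPs are found mainly in the vacuole membrane and PIPs mainly in the plasma membrane, so that together they set how easily water moves into a plant cell and on into its vacuole. NIPs are better known for boric acid, arsenite and other solutes, and SIPs reside in the endoplasmic reticulum.

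Both groups were wild-type Columbia (Col-0) seedlings, and the labels named no transgene or mutation. Seeds were kept for 4 days at 4 °C on medium with 1% sucrose, given 12 h of white light, and then held for 4 days in darkness or under red light at a fluence rate of 60 µmol/m2/s, for a growth time of 4.5 days. The labels named 2 samples per condition, but the deposited tables held 1 column for each condition, so no spread between samples could be had. The columns held 41106535 reads in the dark and 33521717 in red light, with a median of 287 and 242.5 reads per gene model.

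Levels are given in RPKM, reads scaled to gene length and to the total reads of the column, so that genes can be compared with each other. A gene was called when RPKM + 1 differed at least 2-fold and the higher condition reached 10 RPKM. Each ratio is red light over dark in reads per total reads, with an exact (Clopper-Pearson) 95% interval that covers counting error only and says nothing of variation between seedlings. No p-value is given, because a test needs replicate values.

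The pore of an aquaporin is lined by a pair of Asn-Pro-Ala boxes, and the coding sequences of the 35 genes show where the subfamilies depart from that form. The 33-base stretches shown hold the 9 bases of the box in capitals, with 12 coding bases on each side, read 5′ to 3′ on the coding strand from the RefSeq TAIR10.1 genome. They were chosen to set the most abundant TIP and PIP1 genes beside NIP and SIP genes with altered boxes.
TIP1-2, first box, chr3:9723428-9723460, minus strand: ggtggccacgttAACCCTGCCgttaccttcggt
TIP1-2, second box, chr3:9722914-9722946, minus strand: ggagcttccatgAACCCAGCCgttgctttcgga
PIP1-2, first box, joined across an intron within chr2:18910777-18911034, plus strand: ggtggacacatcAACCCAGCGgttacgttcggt
PIP1-2, second box, chr2:18911445-18911477, plus strand: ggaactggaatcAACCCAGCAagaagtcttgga
NIP1-1, first box, chr4:10422938-10422970, minus strand: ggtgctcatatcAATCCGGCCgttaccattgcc
NIP1-1, second box, chr4:10421902-10421934, minus strand: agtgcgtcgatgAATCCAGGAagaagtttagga
NIP5-1, first box, chr4:6432357-6432389, minus strand: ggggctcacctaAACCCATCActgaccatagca
NIP5-1, second box, chr4:6431683-6431715, minus strand: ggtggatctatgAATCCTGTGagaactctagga
SIP1-1, first box, chr3:1073804-1073836, minus strand: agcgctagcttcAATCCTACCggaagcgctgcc
SIP2-1, first box, chr3:21079420-21079452, minus strand: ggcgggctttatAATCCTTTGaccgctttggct
All 10 TIP genes and all 13 PIP genes had an alanine codon, GCN, at the end of both boxes. Only 4 of 9 NIP genes did, and none of the 3 SIP genes, whose second box kept the alanine codon in 3 of 3 and whose first box did in 0 of 3. The boxes lay 121 codons apart in every PIP gene, 113 to 114 in TIP genes, 111 to 119 in NIP genes and 111 to 116 in SIP genes.

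Of the 35 genes, 27 reached 10 RPKM in at least 1 condition. Among them PIP1-4 rose in red light, PIP2-4 and TIP3-2 fell, and 24 were not called. By the same rule, 8.69% of 12625 genes were called higher in red light and 5.35% lower. The median log2 change of the 27 aquaporins was −0.13, beside −0.11 over all 12625 genes. With quantile normalization these medians were −0.32 and −0.09, so the family then stood lower. As reported, 19 of the 27 (70.4%) lay within 0.5 of 0 on the log2 scale, as did 63.3% of all genes. The counting interval of the ratio left out 1 in 24 of the 27. Such intervals narrow as reads increase, and the share over all genes is not given here. The count is therefore not read as a trait of the family. The family as a whole took 2.79% of reads in the dark and 2.70% in red light, a ratio of 0.967 (0.964 to 0.969). These were whole-seedling RNAs, in which fewer cells of a type and less RNA per cell cannot be told apart.

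**Figure D1:**
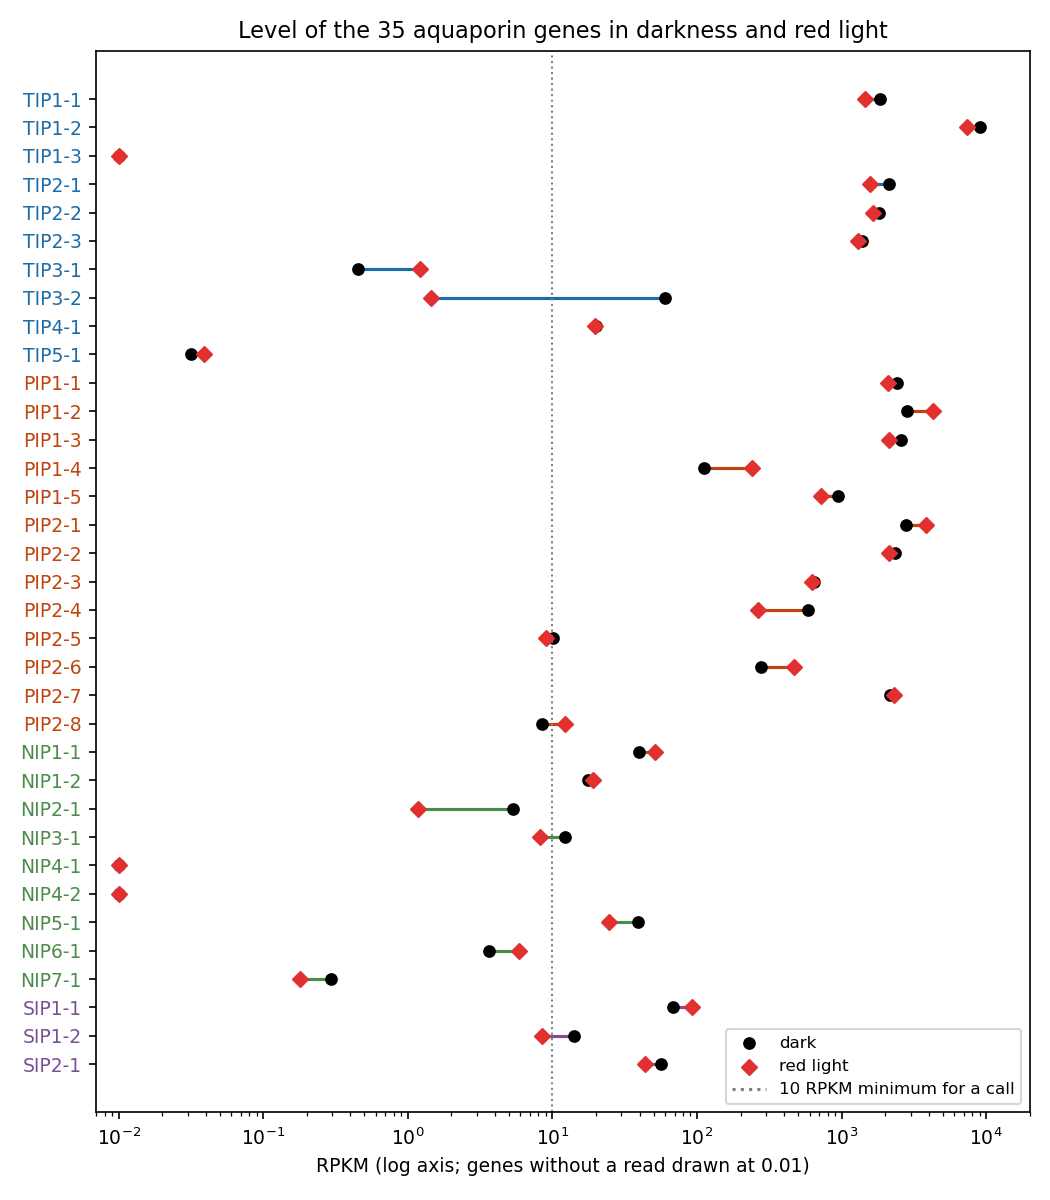
Level of each aquaporin gene in dark and in red light, in RPKM on a log axis, grouped by subfamily, with 1 value per condition, no error between samples, and genes without a read drawn at 0.01. TIP1-2 was the highest in both conditions, and most NIP genes lay far below the leading TIP and PIP genes.

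All 7 TIP genes that reached 10 RPKM had a lower value in red light, as did 7424 of all 12625 such genes. Only TIP3-2 was called. It reached the minimum only in the dark, and TIP3-1, higher in red light, reached it in neither condition. The TIP median log2 change was −0.30 over these 7 and −0.11 over all 10 with no minimum. The lower values held in the other scalings with 2 exceptions. TIP4-1 turned upward with TMM and DESeq2 factors, and TIP1-2 came to 0.00 with quantile normalization. That method gives equal ranks equal values, and TIP1-2 ranked 4th in both conditions. Its 0.00 was thus fixed and cannot show whether its lower value held. Summed over the subfamily, the level was 16302 RPKM in the dark and 13327 RPKM in red light, for a ratio of summed reads of 0.817 (0.814 to 0.821).

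TIP1-2 (AT3G26520, symbol TIP2), a vacuole membrane water channel, was the most abundant aquaporin, with 9069 RPKM in the dark and 7351 RPKM in red light. It ranked 4th among all genes in both conditions, and its ratio was 0.811 (0.806 to 0.815). TIP1-1 (AT2G36830, GAMMA-TIP), its close relative in the same membrane, had 1835 RPKM in darkness and 1449.6 RPKM under red light, at a ratio of 0.790 (0.780 to 0.800). TIP2-1 (AT3G16240, DELTA-TIP), which also carries ammonia, had 2132 and 1562 RPKM, a ratio of 0.733 (0.724 to 0.742). Among the abundant TIP genes TIP2-1 thus had the ratio farthest below 1. TIP2-2 (AT4G17340) had 1804 RPKM in the dark and 1654 RPKM in red light, and TIP2-3 (AT5G47450), an ammonia channel like TIP2-1, had 1381 and 1288 RPKM. None of these 5 genes was called. TIP4-1 had 20.1 and 19.7 RPKM, and the interval of its ratio, 0.871 to 1.11, spanned 1. TIP1-3 and TIP5-1, known from pollen, had no read and a single read in each condition.

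TIP3-2 (AT1G17810, BETA-TIP; chr1:6130025-6131627, plus strand), a channel of the protein storage vacuoles of seeds, had 60.2 RPKM in the dark and 1.45 RPKM in red light, from 1989 and 39 reads. It fell 41.6-fold (30.3 to 58.7), by 4.64 on the log2 scale, the largest change of the family in either direction. Its relative TIP3-1 (AT1G73190) had 0.452 RPKM in the dark and 1.22 RPKM in red light, from 15 and 33 reads, and stayed under the minimum. The 2 seed-type TIP genes were therefore not at like levels in the dark. Of the TIP3-2 coding sequence, 47.1% lies inside a long non-coding RNA gene on the opposite strand, AT1G05333, which has no row in the tables, and no source used here states whether reads were assigned by strand. Reads of these 2 genes cannot be told apart over that stretch, and the part of the antisense RNA in the fall was not tested.

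Because the TIP3 pair differed in level, the sequences before their transcript starts were compared. The windows of 250 bases before the starts of TIP3-1 and TIP3-2 were searched for their longest common run, which held 17 bases. Among 26690 such windows, no other held this run. A run of that length, picked from this pair, would rarely recur, so the count does not mark it as particular to TIP3 genes. The run begins 129 bases before the start in TIP3-1 and 136 bases before it in TIP3-2. It is shown in capitals with its flanks, from the RefSeq TAIR10.1 genome.
TIP3-1, chr1:27521808-27521837, plus strand: tttatctACTTGGCACACATGCATgcttag
TIP3-2, chr1:6129882-6129911, plus strand: ttgatccACTTGGCACACATGCATagatat
The run holds the RY letters CATGCA, known from seed gene promoters, and overlapping them the letters CACATG, bound by phytochrome-interacting factors. Searched on both strands, CATGCA was in the windows of 11 of 35 aquaporins and 8.44% of all windows, and CACATG in 11 of 35 and in 2942 of the 26690. The G-box CACGTG was in 0 of 35 and 6.74%, and the evening element AAAATATCT in 0 of 35 and 2.36%. Such matches describe letters in a window and not bound sites.

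The 13 PIP genes all reached 10 RPKM, with 6 values higher and 7 lower in red light. Their summed level was 17681 RPKM in the dark and 19151 RPKM in red light. For these 13 genes the ratio of summed reads was 1.09 (1.08 to 1.09). The ratio was 0.994 for their summed values after quantile normalization. Their median log2 change was −0.04, and over the same 13 genes it turned to 0.03 with TMM and with DESeq2 factors. Over the 12 genes that still reached 10 RPKM under those factors, without PIP2-5, it was 0.09 and 0.08.

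In the PIP1 group, whose members often reach the plasma membrane together with PIP2 partners, PIP1-4 (AT4G00430; chr4:185285-187680) had 112 RPKM in the dark and 238 RPKM in red light. It rose 2.12-fold (2.04 to 2.20), by 1.08 on the log2 scale, just past the 2-fold rule. PIP1-2 (AT2G45960, PIP1B), a channel for water and carbon dioxide, had 2832 and 4298 RPKM, a ratio of 1.52 (1.51 to 1.53), and its rank among all genes went from 21 to 9 without a call. The other 3 PIP1 genes had lower values in red light. PIP1-1 had 2409.8 RPKM in the dark and 2105 RPKM in red light, and PIP1-3 had 2584 and 2136 RPKM. PIP1-5 (AT4G23400) had 947 and 718 RPKM, a ratio of 0.758 (0.745 to 0.771), the lowest of the group.

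In the PIP2 group, the main water channels of the plasma membrane, PIP2-4 (AT5G60660; chr5:24375368-24377206), known from roots, had 581 RPKM in the dark and 265 RPKM in red light. It fell 2.19-fold (2.14 to 2.25), by 1.13 on the log2 scale. PIP2-1 (AT3G53420, PIP2A), studied in guard cells and lateral roots, was not called but had a higher value in red light, with 2771 and 3854 RPKM and a ratio of 1.39 (1.38 to 1.40). PIP2-6 (AT2G39010, PIP2E) had 277 RPKM in the dark and 467 RPKM in red light, at a red-to-dark ratio of 1.69 (1.64 to 1.73) that missed the rule. PIP2-7 had 2176 and 2292 RPKM, and the sign of its log2 change depended on the scaling, with values from −0.17 to 0.14. The 2 lowest PIP genes, PIP2-5 and PIP2-8, had 10.1 and 8.49 RPKM in the dark and 9.04 and 12.2 RPKM in red light.

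PIP2-2 (AT2G37170, PIP2B) and PIP2-3 (AT2G37180, RD28, named for its response to drying) are neighbours on chromosome 2 with coding sequences 94.8% identical. Their values in dark and red light were 2328 and 2129 RPKM for PIP2-2 and 643 and 627 RPKM for PIP2-3. Both changes were within 0.5 of 0 on the log2 scale. The values are uncertain, since 38.5% of the 31-base words of each gene occur in both and reads could be split between them. The PIP2-3 log2 change ran from −0.12 to 0.03 over the scalings. Taken as a pair they had 104809 reads in the dark and 79291 in red light, a ratio of 0.928 (0.919 to 0.936).

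**Figure D2:**
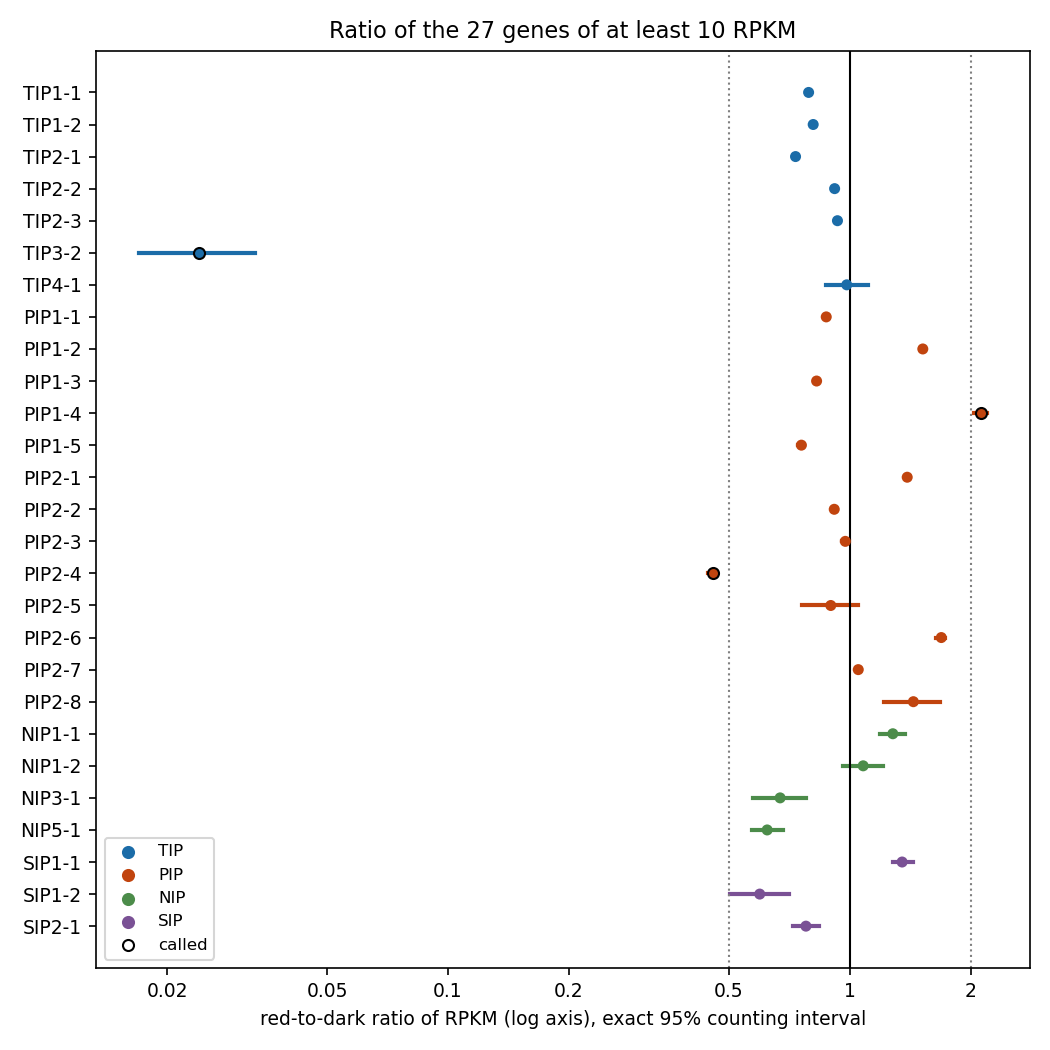
Ratio of red light to dark for the 27 aquaporins of at least 10 RPKM, on a log axis, with exact 95% counting intervals and dotted guides at 0.5 and 2. Black rings mark called genes. TIP3-2 lies far to the left of the rest, PIP2-4 past the lower guide and PIP1-4 past the upper one.

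NIP genes were low. NIP1-1 (AT4G19030, NLM1), which carries arsenite, was the most abundant, with 39.9 RPKM in the dark and 51.0 RPKM in red light, at a red-to-dark ratio of 1.28 (1.19 to 1.37). NIP5-1 (AT4G10380), the boric acid channel of roots, had 39.3 and 24.5 RPKM, a ratio of 0.623 (0.570 to 0.681). Neither was called, and so the 2 leading NIP genes, nearly level in the dark, stood apart in red light. NIP1-2, linked to aluminium malate, had 17.7 and 19.1 RPKM with an interval of 0.962 to 1.21, and NIP3-1 had 12.2 and 8.19 RPKM. NIP2-1 (AT2G34390), a lactic acid channel induced by low oxygen, had 5.30 RPKM in the dark and 1.17 RPKM in red light, from 189 and 34 reads, and was under the minimum. Its whole coding sequence lies inside an antisense non-coding gene, AT2G08660, so its reads are uncertain too. NIP6-1 had 3.63 and 5.85 RPKM and NIP7-1 had 10 and 5 reads, while NIP4-1 and NIP4-2, known from pollen, had none.

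Of the SIP genes, SIP1-1 (AT3G04090, SIP1A) had 68.6 RPKM in the dark and 92.9 RPKM in red light, at a red-to-dark ratio of 1.35 (1.28 to 1.44). SIP2-1 (AT3G56950) had 56.2 and 43.7 RPKM, a ratio of 0.778 (0.722 to 0.838), and SIP1-2 had 14.2 and 8.48 RPKM. None was called, and the summed ratio of 1.03 (0.990 to 1.08) had an interval that spanned 1.

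Set side by side, the vacuole and plasma membrane subfamilies held different shares of the family's summed RPKM in the 2 conditions. TIP genes made up 47.6% in the dark and 40.7% in red light, and PIP genes 51.6% and 58.5%, so that the TIP level per PIP level went from 0.922 to 0.696. This ratio does not depend on a factor applied to a whole column, but quantile normalization is no such factor. With it, the red-to-dark ratios of the summed normalized values were 0.846 for TIP and 0.994 for PIP. As reported, the ratios of summed reads were 0.817 and 1.09, so with quantile normalization the 2 sums stood closer together. That method fixed TIP1-2 at no change, because its rank was the same in both conditions. The other abundant TIP genes went lower with it on the log2 scale. TIP1-1 went from −0.34 to −0.61, TIP2-1 from −0.45 to −0.70, TIP2-2 from −0.13 to −0.40 and TIP2-3 from −0.10 to −0.40. Within the PIP genes, PIP1-2 and PIP2-1 together held 31.7% of the summed level in the dark and 42.6% in red light. Within the TIP genes, TIP1-2 alone held 55.6% and 55.2%.

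**Figure D3:**
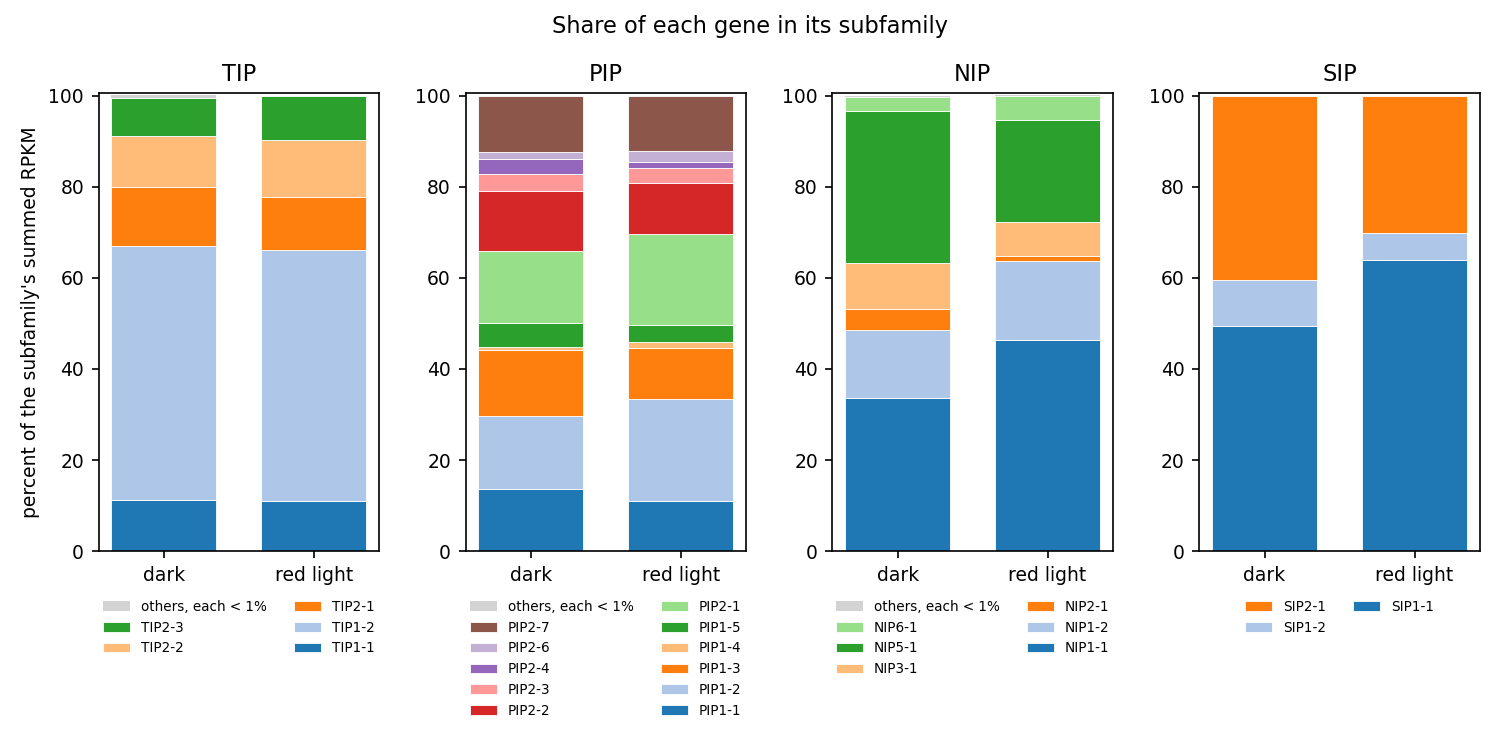
Share of each subfamily's summed RPKM held by its members, in percent, in dark and in red light, with members under 1% summed in grey. PIP1-2 and PIP2-1 widen in red light, while TIP1-2 keeps over 55% of the TIP level in both.

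The most abundant aquaporins lay inside the 2-fold rule. Of the 35 genes, 11 reached 1000 RPKM in a condition, a level chosen after the values were seen, and they held 91.5% of the family's RPKM in the dark and 92.0% in red light. None of the 11 was called. Among all 160 genes that reached this level, 46 rose by the rule and 15 fell, a share of 38.1%. A gene entered the 160 by reaching 1000 RPKM in either condition alone, so a large change could itself bring it in. The 11 aquaporins were above 1000 RPKM in both conditions, the lowest being TIP2-3 with 1381 and 1288 RPKM. The share is therefore no like-for-like measure of how steady they were. The 11 had 3 values higher and 8 lower in red light, with a median log2 change of −0.13.

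**Figure D4:**
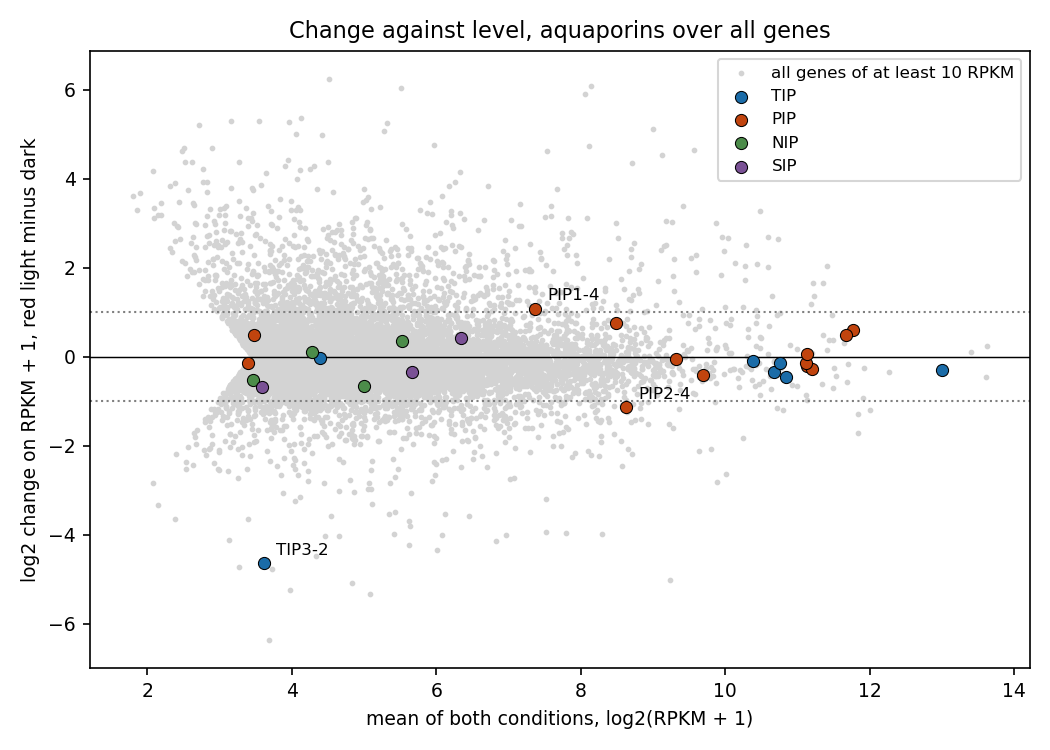
Log2 change on RPKM + 1, red light minus dark, against mean log2 level, for genes that reached 10 RPKM (grey) and the aquaporins among them (coloured by subfamily). The abundant aquaporins at the right lie between the 2-fold lines, and TIP3-2 lies at −4.64.

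Genes that work beside aquaporins were read by the same rule, which called 8.69% of all 12625 genes higher and 5.35% lower. With few genes in a list, such shares give few calls or none. Of 29 vacuolar proton pump genes, 27 reached 10 RPKM and none was called, with a median log2 change of −0.13, and AVA-P2, the most abundant in the dark, had 507 and 418 RPKM. TUF, the most abundant in red light, had 431 and 434 RPKM. Of 11 plasma membrane proton pump genes, 4 reached the minimum and none was called, with a median of −0.42 and 821 and 537 RPKM for HA2. Among 7 borate exporter genes, which move boric acid onward from NIP channels, 3 reached it and BOR1 fell 2.27-fold, with 123 RPKM in the dark and 54.4 RPKM in red light. Among 7 trafficking and turnover partners, TSPO, which directs PIP proteins to autophagy, rose from 5.56 to 14.7 RPKM, and RMA1, of a ubiquitin ligase family that acts on PIP proteins, fell 2.29-fold from 57.5 to 25.1 RPKM. VAP27-1 was the most abundant partner, at 312 and 163 RPKM. Of the 7 partners 6 had a lower value in red light, with a median log2 change of −0.64. The ratio of their summed reads was 0.603 (0.589 to 0.617).

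Markers of organs and stages that aquaporins are known from were read beside these values. All 8 root endodermis genes reached 10 RPKM and none was called, with 837 summed RPKM in the dark and 798 in red light and a ratio of 0.935 (0.919 to 0.952), beside the fall of the root gene PIP2-4. ESB1, which is among them, has uncertain reads, since its coding sequence lies inside another gene and shares 65.3% of its 31-base words. Without it the endodermis ratio was 1.00 (0.981 to 1.02), an alternative chosen after seeing the data. CASP1 was the most abundant endodermis gene, with 258 RPKM in the dark and 225 RPKM in red light. Of 7 root hair genes 1 reached the minimum, PRP3 with 40.7 and 26.2 RPKM, and the summed ratio was 0.698 (0.659 to 0.738). Of 7 root stele and meristem genes, led by PHO1 with 104 and 94.7 RPKM, 3 reached the minimum. None of them was called, at a summed ratio of 0.975 for the list. Of 19 seed maturation genes 3 reached it: OLEO3 fell 3.62-fold from 56.8 to 15.7 RPKM, ABI5 fell 2.91-fold from 12.8 to 4.40 RPKM, and GEA6 rose from 1.66 to 10.8 RPKM. Of the other 16, 14 had a higher value in red light, so the seed list did not move as one with TIP3-2. The part of root or seed tissue in the changes of PIP2-4 and TIP3-2 was not tested.

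**Figure D5:**
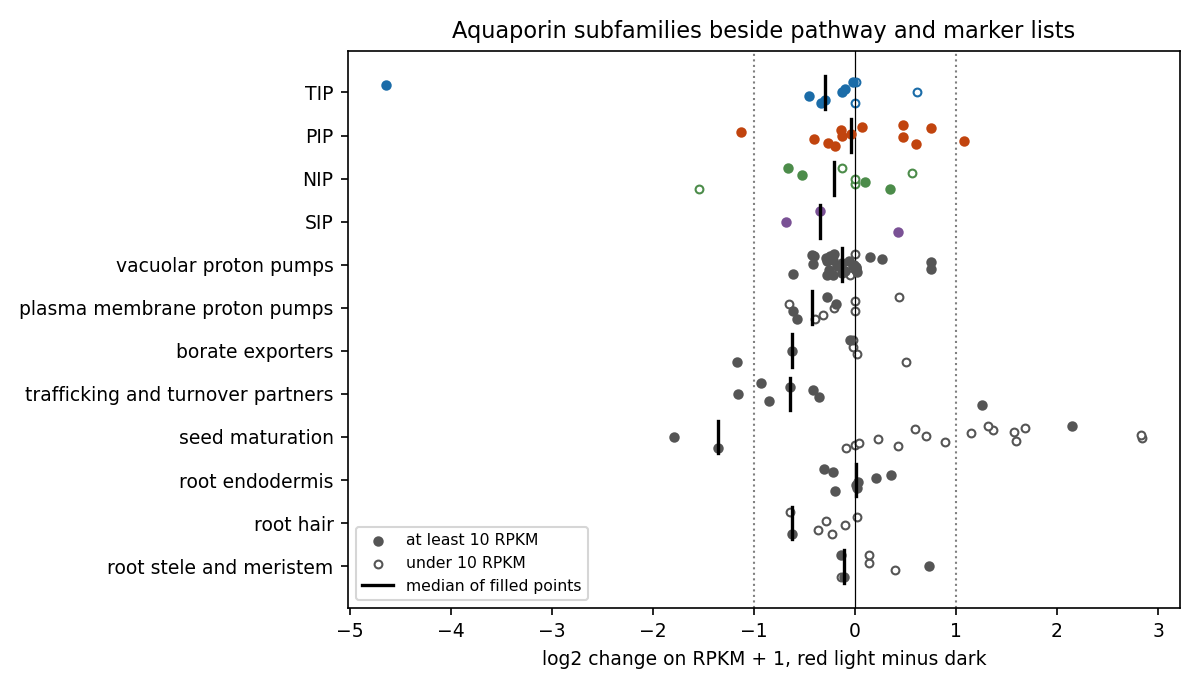
Log2 change on RPKM + 1, red light minus dark, of the genes in each subfamily and gene list, with 1 point per gene, filled where it reached 10 RPKM, a bar at the median of the filled points and dotted lines at the 2-fold rule. TIP3-2 is the lowest point, and the vacuolar proton pumps centre on −0.13.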

How the data were processed

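RNA of whole seedlings was sequenced, 2 samples per condition per the labels. The deposited tables list, per gene model, read counts and RPKM that the authors computed, 1 column per condition; how the samples were combined, the aligner and the use of strand were not stated in the labels or headers. The build is TAIR10, per the submitters' processing notes. The deposited counts are whole except for 0.5, which stands where a 0 would and was read as no read, so they were handled as estimated counts with 0.5 set to 0; rounding was not needed. Log2 changes used RPKM + 1. With 1 column per condition the planned edgeR test could not be fitted. Ratios carry Clopper-Pearson intervals, and a count of 0 allows up to 3 reads. Coding sequences, promoters and coordinates came from RefSeq TAIR10.1; all 35 aquaporins matched, and 32 of 32 with reads had the coding length implied by counts and RPKM. A gene's reads were called uncertain where 25% or more of its coding sequence is shared or overlapped, which held for 4 aquaporins. All 35 may be named. The rule gave values for called genes, those of at least 100 RPKM and the leading gene of each subfamily, and for lists up to 2 called genes each way and the most abundant. Values of lower members were printed beyond this rule, as were those of TUF and the overlap of ESB1, and were chosen after they were seen. Members and lists were chosen with earlier results of these data known. Scalings tried were edgeR 4.0.16 TMM and upper-quartile, DESeq2 1.42.0 size factors, quantile normalization and totals without organelle genes, in R 4.3.3 and Python 3.11.15; other settings were the pseudocount, the minimum RPKM, the counting interval and leaving out uncertain genes. Calls were also tested on simulated data with known changes. Since a call is a fixed threshold, this checks only that the rule runs as written. It does not bear on variation between samples.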

Additional observations from a re-analysis of the deposited data

How the results depend on the processing

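No called gene changed direction, but the sign of the PIP and SIP medians and the side of 1 of the PIP ratio did. Calls lower in red light numbered 1 without genes of uncertain reads, and NIP2-1 was called lower, at −1.54, with no minimum RPKM. Median log2 changes came to −0.23 with TMM, −0.24 with DESeq2, −0.29 with upper-quartile factors, −0.40 with quantile normalization and −0.11 with no minimum for TIP; to 0.09 and 0.08 with TMM and DESeq2, over 12 genes since PIP2-5 fell under the minimum (0.03 over all 13), and −0.15 with quantile normalization for PIP; to 0.00 with no minimum for NIP; and to 0.04 at a minimum of 20 RPKM for SIP. Ratios of summed reads with TMM were 0.858 for TIP, 1.14 for PIP, 0.971 for NIP and 1.09 for SIP. With DESeq2 they were 0.855 for TIP, 1.14 for PIP and 1.08 for SIP. With upper-quartile factors they were 0.826 and 1.10 for TIP and PIP. With quantile normalization, the ratios of summed normalized values were 0.846 and 0.994 for TIP and PIP. Beyond the genes lost to a minimum and the value that equal ranks fixed for TIP1-2 with quantile normalization, the cause was not tested. At a minimum of 20 RPKM, partners had 0 higher calls and the seed list 0 higher and 1 lower; with no minimum the seed list had 9 higher. TMM moved the median of all genes by 0.07. No paired analysis was possible because the tables hold 1 column per condition, and leaving out a sample was not run for that reason. Genes of few reads, such as TIP3-1, have wide intervals.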
